A study of Mus musculus with 6 samples.

Results

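The transcripts described here are 6 genes of the NADPH oxidase system in cultured mouse kidney cells. Cybb, Cyba, Ncf1 and Ncf4 encode subunits of the phagocyte oxidase. Rac2 is the GTPase that switches it on in blood cells, and Nox4 is an oxidase abundant in kidney. The genes were taken by gene symbol from the deposited table, in which all 6 are present among 22274 genes. RNA-seq libraries came from cells labelled as primary renal fibroblasts of kidney tissue, all treated with TGF-β at 5 ng/ml for 48 h to activate them. In 3 libraries the cells carried siRNA against Prune2 (genotype label: prune2 knockdown), and in 3 they carried a scrambled control siRNA (genotype label: WT). The labels give no mouse strain, age or siRNA sequence, and do not say if replicates came from separate kidneys, isolations or dishes. The spread on which each p-value rests is thus that of the libraries as sequenced, and may be technical only.

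NADPH oxidases pass electrons from NADPH across a membrane to oxygen and so make superoxide or hydrogen peroxide. In the phagocyte enzyme the catalytic chain gp91phox (Cybb) is stabilised by p22phox (Cyba), and the pair stays silent until cytosolic subunits, p47phox (Ncf1) and p40phox (Ncf4) among them, join it together with Rac2. The burst of oxidant that follows kills ingested microbes in neutrophils and macrophages. Nox4 also pairs with p22phox, but it needs no cytosolic subunits and makes hydrogen peroxide continuously. It is known from renal tubule cells, and in fibroblasts it is known as a TGF-β-induced gene.

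Library totals ran from 20075265 to 23234797 counts. Prune2 itself was lower in each Prune2 siRNA library, with 80, 73 and 104 counts in the Prune2 siRNA libraries and 133, 157 and 150 counts in the control libraries (log2 fold change -0.87, SE 0.15, adjusted p = 0.000214). That call was lost when deposited FPKM were used instead of counts (adjusted p = 0.134 to 0.186, limma). Unless another source is named, adjusted p-values come from a quasi-likelihood fit in edgeR to 13248 tested genes, adjusted over all of them by Benjamini-Hochberg. A negative log2 fold change means a lower level with Prune2 siRNA. Levels are CPM, read counts scaled to the TMM-normalised library size. The fibroblast label was only partly matched by the markers. Col1a1 averaged 203.7 ± 13.2 CPM in Prune2 siRNA libraries and 236.1 ± 3.42 CPM in control libraries (SD, n = 3 each), but Lum had 0 to 3 counts and Fap 0 to 4 counts in a library. The tubular epithelial markers Cdh1 and Epcam averaged 997 ± 32.1 and 431 ± 17.2 CPM with Prune2 siRNA, against 1055 ± 26.4 and 428 ± 4.72 CPM in controls (SD, n = 3 each). Markers of single nephron segments differed in level. Of the 13 tubular markers listed, Slc34a1 and Aqp2 had 0 counts in all 6 libraries. Slc12a1 had 7 to 15 counts in a library and Umod 21 to 47, but Slc12a3 had 35 to 151 and Lrp2 689 to 911. Of the other fibroblast markers listed, Dcn, Thy1 and S100a4 had at most 26 counts in a library. Col1a2, Col3a1, Pdgfra, Pdgfrb, Vim and Postn had at least 92. Col1a1 and Postn are also on the TGF-β-induced list used below. The 8 endothelial markers listed had from 38 (Tek) to 704 (Cdh5) counts in a library. The cultures therefore held transcripts of epithelium, endothelium, part of the fibroblast list and, as given below, macrophages.

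Promoter sequences are shown first, for the pair of phagocyte subunits that fell furthest and for the pair of genes that missed the threshold. RefSeq promoters of build GRCm38.p6 were at hand for 4 of the 6 genes (Cybb, Ncf1, Cyba and Nox4). Each line gives the 250 bases before the RefSeq transcript start, 5′ to 3′ on the gene's own strand. Capitals mark matches on either strand to GAAA, any 2 bases and GAAA again, the core of an interferon response element bound by IRF factors, to AGGAAGT, an ETS family site, or to GGGCGG, the GC box of SP1-type factors.
Cybb: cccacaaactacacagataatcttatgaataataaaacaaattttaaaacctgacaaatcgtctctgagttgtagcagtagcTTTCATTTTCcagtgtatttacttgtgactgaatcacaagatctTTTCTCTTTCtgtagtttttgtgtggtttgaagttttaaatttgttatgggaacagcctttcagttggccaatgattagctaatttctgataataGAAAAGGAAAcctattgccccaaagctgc
Ncf1: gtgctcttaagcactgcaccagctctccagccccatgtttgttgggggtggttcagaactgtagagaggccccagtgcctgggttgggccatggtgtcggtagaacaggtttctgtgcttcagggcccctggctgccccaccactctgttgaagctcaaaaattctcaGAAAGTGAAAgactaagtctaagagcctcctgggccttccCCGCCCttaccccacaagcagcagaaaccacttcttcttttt
Cyba: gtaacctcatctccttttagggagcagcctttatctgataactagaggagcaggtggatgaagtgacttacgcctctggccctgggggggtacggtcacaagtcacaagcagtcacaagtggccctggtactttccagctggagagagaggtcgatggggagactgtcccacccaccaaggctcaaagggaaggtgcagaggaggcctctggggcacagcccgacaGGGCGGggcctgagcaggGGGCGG
Nox4: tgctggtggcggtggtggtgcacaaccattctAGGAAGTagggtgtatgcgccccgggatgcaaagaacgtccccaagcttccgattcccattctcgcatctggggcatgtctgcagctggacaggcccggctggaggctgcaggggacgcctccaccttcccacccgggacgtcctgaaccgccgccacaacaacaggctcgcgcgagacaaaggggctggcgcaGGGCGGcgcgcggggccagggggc
The Cybb stretch lies on the minus strand at chrX:9469325-9469574, that of Ncf1 on the minus strand at chr5:134229626-134229875, that of Cyba on the minus strand at chr8:122432941-122433190, and that of Nox4 on the plus strand at chr7:87246399-87246648. GC content was 34% in Cybb, 54.4% in Ncf1, 60% in Cyba and 67.2% in Nox4. The RefSeq starts of Cybb and Nox4 lie inside the gene spans that GENCODE gives.

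The interferon-type motif occurred 3 times before the Cybb start, first bases at -168, -124 and -29, and in Ncf1 at -82 as GAAAGTGAAA. It was not among the letters of the Cyba or Nox4 windows. Of 32851 promoter windows of 300 bases (250 before and 50 after a start) in the RefSeq table, 3.44% held this motif. The PU.1-IRF composite (GGAA, any 2 bases, GAAA), found in 2.72% of windows, had a single match among these genes, on the reverse strand at base 4 after the Cybb start, as TTTCATTTCC. GC boxes, found in 35.7% of windows, stood 2 times in Cyba (at -24 and -6), at -24 in Nox4 and at -42 in Ncf1. AGGAAGT, found in 9.35%, was in the Nox4 window alone, at -218. No matches overlapped, and the motifs were chosen with results of these data known. A match describes letters only and is no evidence that a factor binds there.

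The genes are spread over 5 chromosomes in the GENCODE M21 annotation of GRCm38, and all are protein coding. Cybb (ENSMUSG00000015340) spans 9435252 to 9487771 on the minus strand of chromosome X. Cyba (ENSMUSG00000006519) spans 122424776 to 122432930 on the minus strand of chromosome 8, and Ncf1 (ENSMUSG00000015950) 134220053 to 134229625 on the minus strand of chromosome 5. Ncf4 (ENSMUSG00000071715, 78244801 to 78262580, plus strand) and Rac2 (ENSMUSG00000033220, 78559167 to 78572783, minus strand) are both on chromosome 15. Nox4 (ENSMUSG00000030562) spans 87246096 to 87398710 on the plus strand of chromosome 7. Few 50-base stretches of these transcripts recur in another gene: 0% for Cybb and Ncf4, 0.189% for Ncf1, 0.246% for Nox4, 0.484% for Rac2 and 2.39% for Cyba. Exons of Ncf1 overlap those of Gtf2ird2 on the opposite strand, and strand use in counting is not given in the sources used here, so reads in that overlap cannot be told apart. Gtf2ird2 averaged 10.9 ± 0.71 CPM with Prune2 siRNA and 10.2 ± 0.641 CPM in controls (SD, n = 3 each; adjusted p = 0.67).

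The transcripts separated into a group of 4 that fell by 5.29-fold to 9.45-fold with Prune2 siRNA and a group of 2 that did not pass the test. Cybb, Ncf1, Ncf4 and Rac2 fell, 0 rose, and Cyba and Nox4 were not called. Across all tested genes 10.3% were called, 4.46% as higher and 5.83% as lower. Called falls of at least 2-fold made up 1.83% and those of at least 4-fold 1.15%. For the same 4 genes every Prune2 siRNA library lay below every control library, a pattern seen for 12.4% of tested genes. Cybb, Ncf1, Cyba and Nox4 passed the filter on low counts in both groups, whereas Ncf4 and Rac2 passed only through the control libraries.

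Cybb encodes the catalytic, heme-carrying chain of the phagocyte oxidase. Its counts were 20, 24 and 29 in the Prune2 siRNA libraries and 213, 230 and 206 in the control libraries. All Prune2 siRNA libraries stood far below the control libraries, with no overlap. Mean levels were 1.08 ± 0.15 CPM with Prune2 siRNA and 10.3 ± 1.28 CPM in controls (SD, n = 3 each), which is 9.45-fold lower (log2 fold change -3.24, SE 0.17, adjusted p = 8.82e-13). The authors' deposited table gives a log2 fold change of -3.05 for Cybb, with an adjusted p of 7.72e-41.

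Ncf1 encodes the organiser subunit that carries the cytosolic complex to the membrane when it is phosphorylated. Its counts were 24, 24 and 29 in the Prune2 siRNA libraries and 212, 189 and 226 in the control libraries. The libraries of a group lay close together and the groups were well apart, as for Cybb. The level was 1.14 ± 0.0959 CPM with Prune2 siRNA and 9.87 ± 0.455 CPM in controls (SD, n = 3 each), 8.62-fold lower (log2 fold change -3.11, SE 0.16, adjusted p = 5.95e-13).

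Ncf4 encodes the small regulatory subunit that reads phosphoinositides on the phagosome membrane. It was the scarcest of the 6, with 7, 2 and 6 counts in the Prune2 siRNA libraries and 31, 23 and 22 counts in the control libraries. The groups did not overlap, but Prune2 siRNA replicate 2 rested on 2 reads. The fall was 5.29-fold (log2 fold change -2.40, SE 0.43, 95% interval -3.29 to -1.51, adjusted p = 0.000289), and its interval was the widest of the 6.

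Rac2 encodes the Rac GTPase of blood cells. It had 13, 9 and 15 counts in the Prune2 siRNA libraries and 75, 88 and 76 counts in the control libraries, again without overlap. The level was 0.549 ± 0.136 CPM with Prune2 siRNA and 3.79 ± 0.559 CPM in controls (SD, n = 3 each), 6.83-fold lower (log2 fold change -2.77, SE 0.27, adjusted p = 2.87e-08). The size depends on the unit: the authors' deposited table gives a log2 fold change of -3.66 on mean FPKM (fragments scaled to gene length and library size). In control replicate 3 the deposited FPKM of Rac2 was 4.23, against 2.05 and 2.08 in control replicates 1 and 2, although its count of 76 was like theirs. Dividing count by FPKM and depth gave a gene length of 780 bases in that library, and between 1567 and 3077 bases in the other 5.

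Cyba encodes the membrane partner shared by the phagocyte oxidase and Nox4. Its counts were 679, 703 and 711 in the Prune2 siRNA libraries and 717, 581 and 657 in the control libraries. The Prune2 siRNA libraries lay inside the range of the controls in CPM, where control replicate 1 was highest. The mean was 31 ± 0.892 CPM with Prune2 siRNA and 30.9 ± 3.6 CPM in controls (SD, n = 3 each; log2 fold change 0.01, 95% interval -0.14 to 0.15, adjusted p = 0.968), and the sign turned with upper-quartile scaling and without Prune2 siRNA replicate 1, control replicate 2 or control replicate 3.

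Nox4 encodes the constitutively active oxidase of kidney. It had 5678, 6492 and 6765 counts in the Prune2 siRNA libraries and 5600, 5527 and 6547 counts in the control libraries. Once scaled to depth these were 268, 283.3 and 289 CPM with Prune2 siRNA and 273.5, 276.3 and 284.5 CPM in controls, so the groups overlapped throughout. The log2 fold change was 0.01 (SE 0.04, 95% interval -0.07 to 0.09, adjusted p = 0.924). The sign turned without Prune2 siRNA replicate 3 or without control replicate 1. In the same libraries 6 of 9 genes of a TGF-β-induced list fell and 0 rose, against 5.83% lower over all tested genes. The median log2 fold change was -0.21, against 0.00 over all tested genes. The largest falls were those of Fn1, fibronectin, 1.35-fold lower (adjusted p = 2.1e-08), and Tagln, an actin-binding protein, 1.31-fold lower (adjusted p = 1.18e-07). The 3 not called, Ccn2, Skil and Smad7, had log2 fold changes from -0.11 to -0.04.

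**Figure D1:**
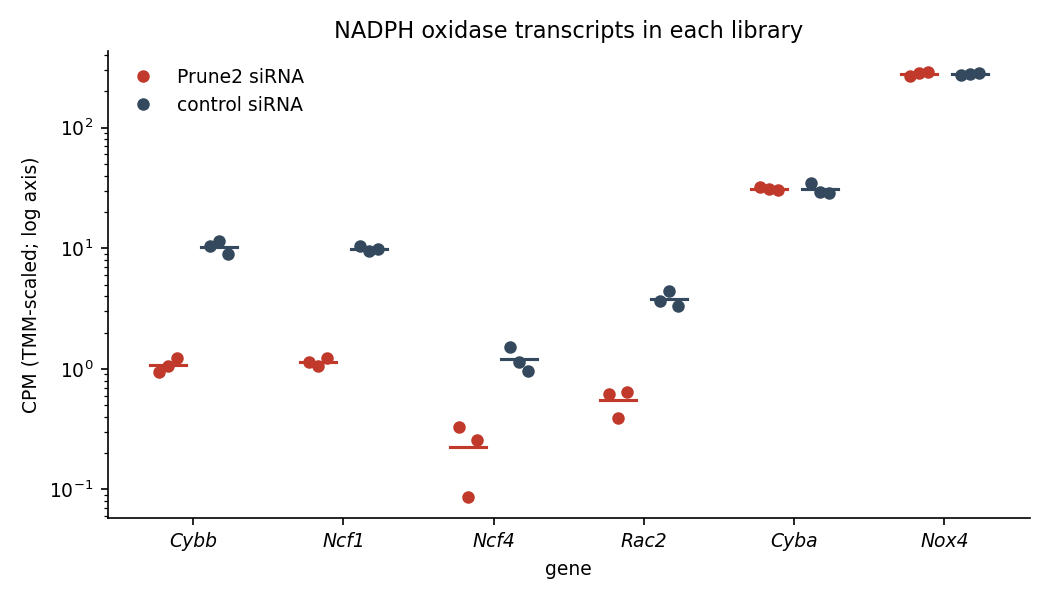
Levels of the 6 subunit genes in CPM (log axis) in each library, with Prune2 siRNA libraries in red on the left and control siRNA libraries in blue on the right of each gene; points are libraries and bars are means of 3. Cybb, Ncf1, Ncf4 and Rac2 show separated groups, and Cyba and Nox4 overlapping groups.

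Per unit length Nox4 was the most abundant of these transcripts and Ncf4 the least, in both groups. Deposited FPKM of Nox4 averaged 80.4 ± 6.37 with Prune2 siRNA and 76.7 ± 1.12 in controls, and that of Cyba 41.9 ± 1.22 and 41.5 ± 4.73 (SD, n = 3 each, Prune2 siRNA first). By FPKM Nox4 stood on average at rank 798 of the 22274 genes with Prune2 siRNA and at rank 828 in controls. With Prune2 siRNA the order continued with Ncf1 at 0.43 ± 0.0458, Cybb at 0.26 ± 0.06, Rac2 at 0.22 ± 0.0265 and Ncf4 at 0.157 ± 0.0874 FPKM (SD, n = 3). In controls it was Ncf1 at 3.61 ± 0.185, Rac2 at 2.79 ± 1.25, Cybb at 2.16 ± 0.266 and Ncf4 at 0.937 ± 0.204 FPKM (SD, n = 3). Rac2 stood above Cybb there only through control replicate 3 with its FPKM of 4.23, and in control replicates 1 and 2 Cybb was higher, at 2.18 and 2.41 against 2.05 and 2.08 FPKM. Neighbouring values overlapped between libraries for Cybb and Rac2 in both groups, for Rac2 and Ncf4 with Prune2 siRNA, and for Ncf1 and Rac2 in controls. Set against its partner, Cybb reached 0.624 ± 0.158% of the FPKM of Cyba with Prune2 siRNA and 5.24 ± 0.822% in controls (SD, n = 3 each). Nox4 exceeded Cyba in every library, at 192 ± 20.3% of its FPKM with Prune2 siRNA and 187 ± 22.5% in controls (SD, n = 3 each).

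Within-library ratios of CPM tested whether the subunits moved by different amounts. The log2 ratio of Cybb to Cyba was -5.09, -4.87 and -4.62 in the Prune2 siRNA libraries and -1.75, -1.34 and -1.67 in the control libraries. It was lower in all 3 Prune2 siRNA libraries, by 3.27 on average (exact two-sided permutation p = 0.1, the smallest that 3 libraries against 3 can give, and 0.233 adjusted over the 7 pairs compared). Nox4 over Cybb differed by 3.27 and Rac2 over Rac1 by -2.80, also with separated groups (each exact permutation p = 0.1, adjusted 0.233). Among the 4 transcripts that fell, the groups overlapped in every ratio: Ncf1 over Cybb differed by 0.14 (exact permutation p = 0.4), Ncf4 over Cybb by 0.65 (exact permutation p = 0.4) and Rac2 over Cybb by 0.45 (exact permutation p = 0.2). Nox4 over Cyba differed by 0.00 (exact permutation p = 1), from 3.06 to 3.25 with Prune2 siRNA and from 2.97 to 3.32 in controls. In deposited FPKM the difference for Rac2 over Cybb turned to -0.51, that for Ncf1 over Cybb to 0.00 and that for Nox4 over Cyba to 0.04.

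Of 17 further oxidase genes listed, 11 were tested, of which Sh3pxd2b fell, 0 rose and 10 were not called (median log2 fold change -0.01). Over all tested genes 5.83% were lower. Sh3pxd2b, a scaffold protein of podosomes related to the organiser subunit, was 1.17-fold lower (adjusted p = 0.000584), with 133 ± 8.83 CPM under Prune2 siRNA and 155 ± 0.564 CPM in controls (SD, n = 3 each), a call lost on FPKM (adjusted p = 0.0611 to 0.0957, limma). The ubiquitous Rac paralogue Rac1 stood at 324 ± 4.33 CPM with Prune2 siRNA and 326 ± 8.7 CPM in controls (adjusted p = 0.936), and Rac3, enriched in nervous tissue, at 2.01 ± 0.415 and 1.72 ± 0.445 CPM (adjusted p = 0.701; SD, n = 3, Prune2 siRNA first). Cybc1, the chaperone of the gp91phox and p22phox pair, stood at 41.7 ± 0.721 CPM with Prune2 siRNA and 41.9 ± 2.8 CPM in controls (SD, n = 3 each; adjusted p = 0.981). The small GTPases Rap1a and Rap1b, the Nox4-binding protein Poldip2 and the scaffold Sh3pxd2a had log2 fold changes from -0.03 to 0.02.

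Scarcer family members gave wider errors. Duox2, a dual oxidase of epithelia, had 23, 21 and 13 counts in the Prune2 siRNA libraries and 27, 39 and 30 in the controls (log2 fold change -0.84, SE 0.31, adjusted p = 0.102). Noxo1, the organiser of the epithelial Nox1 enzyme, had 47, 48 and 46 counts with Prune2 siRNA and 30, 28 and 42 in controls (log2 fold change 0.41, SE 0.24, adjusted p = 0.362). For Duox2 and Noxo1 the groups did not overlap, but neither passed the test. Groups did not overlap, in either direction, for 24.3% of all tested genes. The proton channel Hvcn1, which balances charge during the burst, had a log2 fold change of -0.38 (SE 0.38, adjusted p = 0.659) and passed the filter only through the controls. The remaining 6 were too low to test: Nox3 had 0 counts in all 6 libraries, Nox1 and Noxa1 at most 1 count in any library, Duox1 at most 4, and the dual oxidase maturation factors Duoxa1 and Duoxa2 at most 6 and 8. A count of 0 allows up to 3 counts, between 0.128 and 0.15 CPM in these libraries (counting error only), so a level below that was not detectable at this depth.

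**Figure D2:**
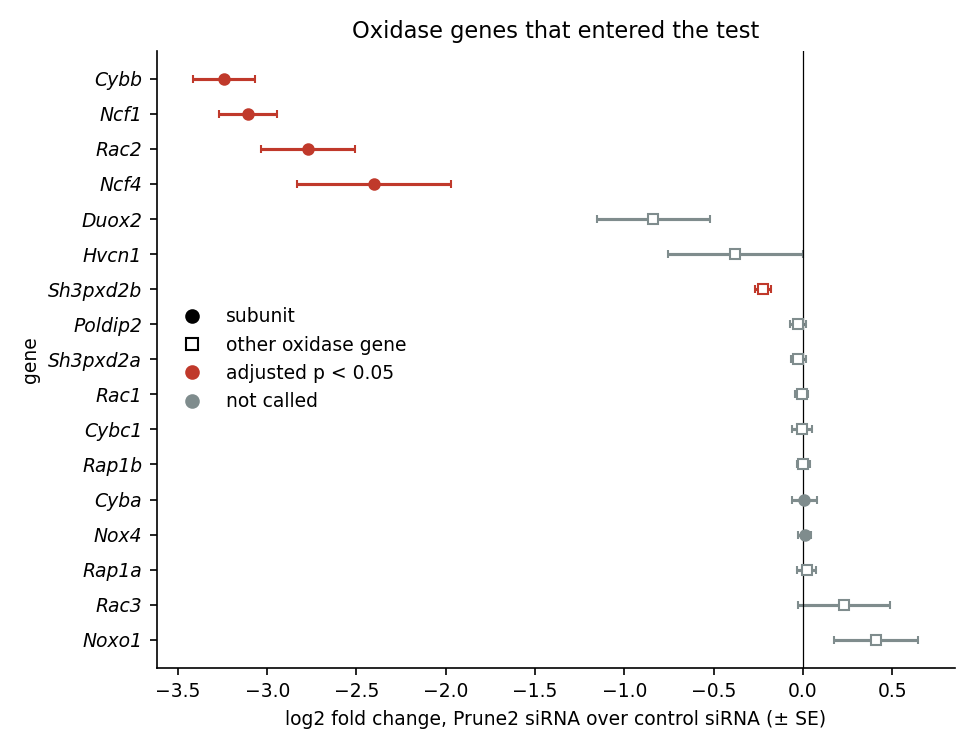
Log2 fold change of each tested oxidase gene, Prune2 siRNA over control siRNA, with its standard error; filled circles are the 6 subunit genes, open squares other oxidase genes, and red marks an adjusted p under 0.05. Cybb at -3.24, Ncf1 at -3.11, Rac2 at -2.77 and Ncf4 at -2.40 lie below all other genes shown, of which Sh3pxd2b at -0.22 was called.

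Macrophage markers moved with the 4 transcripts that fell. All 20 markers of a macrophage list were tested, 20 were lower and 0 higher, against 5.83% lower over all tested genes. Their median log2 fold change was -2.62 (against 0.00 over all tested genes). Of these markers, 5 passed the filter only through the control libraries. Cd74, which chaperones MHC class II molecules, was 7.73-fold lower (adjusted p = 7.37e-18) and Mpeg1, the pore-forming perforin-2 of macrophages, 5.79-fold lower (adjusted p = 1.82e-15). Summed over the list the level was 137 to 143 CPM in the Prune2 siRNA libraries and 330 to 399 CPM in the control libraries. Lgmn, a protease that other cells also make, supplied much of that sum, and without it the range was 49.8 to 53 CPM with Prune2 siRNA and 231 to 292 CPM in controls. No marker of the list had 0 counts in all libraries. In bulk RNA, fewer macrophages and less RNA per macrophage cannot be told apart, and the part of either in the falls of Cybb, Ncf1, Ncf4 and Rac2 was not tested.

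Neutrophils, the cells in which the phagocyte oxidase is most abundant, left almost no trace. The 11 neutrophil markers together had 20 counts in the Prune2 siRNA libraries and 30 in the controls, none was high enough to test, and S100a9, Mpo, Elane, Ngp, Camp and Retnlg were at 0 throughout. Lymphocyte markers were also near 0: of 9 markers Cd3e, Cd3d and Nkg7 were at 0 throughout. Only Cd4 was tested, and it passed the filter only through the control libraries, with 0, 1 and 1 counts with Prune2 siRNA and 26, 13 and 13 in controls (adjusted p = 5.74e-05).

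Set against the summed macrophage markers in the same library, Cybb, Ncf1 and Rac2 were lower in every Prune2 siRNA library than in any control library. Without Lgmn in the sum, the log2 ratio of Cybb to the markers was -5.72, -5.58 and -5.42 in the Prune2 siRNA libraries and -4.74, -4.67 and -4.69 in the control libraries. The groups did not overlap, and the difference was -0.87 (exact permutation p = 0.1, the smallest possible, and 0.12 adjusted over 6 ratios). For Ncf1 the difference was -0.73 and for Rac2 -0.43, both with separated groups (exact permutation p = 0.1, adjusted 0.12). The Rac2 groups lay close, at -6.34, -7.00 and -6.37 with Prune2 siRNA and -6.25, -6.05 and -6.13 in controls. The Prune2 siRNA values of Rac2 rest on 13, 9 and 15 counts, so that separation is narrow. For Ncf4 it was -0.22 with overlapping groups (exact permutation p = 0.9). Cyba and Nox4 were higher relative to the markers, by 2.40 and 2.39 (each exact permutation p = 0.1, adjusted 0.12). Their own log2 fold changes were 0.01 each, so these 2 ratios repeat the fall of the marker sum and do not test Cyba or Nox4. With Lgmn kept in the sum the differences were -1.86 for Cybb, -1.72 for Ncf1, -1.42 for Rac2, -1.21 for Ncf4, 1.41 for Cyba and 1.40 for Nox4, all with separated groups (each exact permutation p = 0.1, and 0.1 adjusted). The sum is weighted to abundant markers, and single markers fell by different amounts: the log2 fold change was -4.19 for Cx3cr1, -3.16 for Fcgr1 and -3.09 for Fcgr3, but -1.09 for Csf1r. Without Lgmn, Csf1r was the largest term with Prune2 siRNA, at 12.8 CPM of a sum of 49.8 to 53. In controls it averaged 27.3 CPM of 231 to 292. A lower ratio to the sum therefore does not mean a larger fall than that of each marker. Cx3cr1 had 3, 3 and 10 counts and Fcgr1 3, 3 and 5 counts in the Prune2 siRNA libraries. Both passed the filter only through the controls, whereas Fcgr3 and Csf1r passed in both groups.

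**Figure D3:**
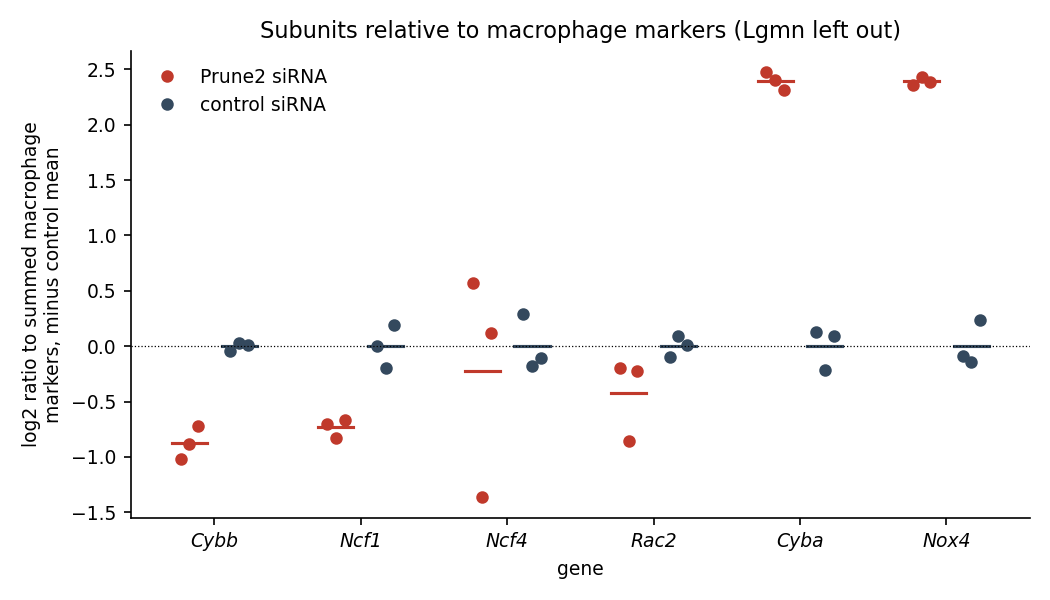
Log2 ratio of each subunit gene to the summed macrophage markers without Lgmn in the same library, minus the control mean of that gene; Prune2 siRNA libraries are red on the left, control siRNA libraries blue on the right, and bars are means of 3. Cybb and Ncf1 lie below 0 with Prune2 siRNA, with mean differences of -0.87 and -0.73, Rac2 also does at -0.43, Ncf4 straddles 0, and Cyba and Nox4 lie near 2.4.

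Most listed genes of the signalling that activates the phagocyte oxidase fell as well. Of 14 listed activators 13 were tested, 9 fell and 0 rose (median log2 fold change -1.02), and 4 passed the filter only through the controls. Over all tested genes 5.83% were lower. Dock2, a Rac exchange factor of blood cells, was 9.28-fold lower, at 0.253 ± 0.0327 CPM with Prune2 siRNA and 2.39 ± 0.355 CPM in controls (SD, n = 3 each; adjusted p = 1.47e-07). Dock2 had 6, 5 and 6 counts in the Prune2 siRNA libraries and 45, 56 and 50 in the controls, and passed the filter only through the controls. Prex1, a Rac exchange factor of neutrophils and other cells, was 2.02-fold lower (adjusted p = 9.71e-07). The 4 not called were Prkcd, Lyn, Plcg2 and Arhgdib, with log2 fold changes from -0.19 to 0.04. The macrophage list, with its median of -2.62, moved the same way, and its part in these falls was not tested.

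Among transcription factors known to act on phagocyte oxidase promoters, Spi1 and Irf8 fell most. Of 10 listed 9 were tested, of which 3 fell, 0 rose and 6 were not called (median log2 fold change -0.10). Over all tested genes 5.83% were lower. Spi1, the myeloid factor PU.1, had 5, 26 and 11 counts in the Prune2 siRNA libraries and 52, 65 and 62 in the controls, and passed the filter only through the controls. It was 4.52-fold lower (log2 fold change -2.18, adjusted p = 3.88e-05), a size that rests in part on Prune2 siRNA replicate 2, without which the log2 fold change was -2.96. Irf8, the interferon regulatory partner of PU.1 in macrophages, was 3.67-fold lower, at 1.35 ± 0.273 CPM with Prune2 siRNA and 5.02 ± 0.685 CPM in controls (SD, n = 3 each; adjusted p = 3.12e-07). Both are also made by macrophages, whose markers were lower here, and the part of that in their falls was not tested. The third, Hoxa10, a homeobox factor, had a log2 fold change of -0.19 (adjusted p = 0.029). Irf1, an interferon regulatory factor known to act on the CYBB promoter in human cells, had a log2 fold change of 0.10 (SE 0.06, adjusted p = 0.384).

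Genes that remove superoxide and peroxide were called about as often as all tested genes, and no gene that supplies NADPH was called. Of 28 antioxidant genes 27 were tested, with 2 higher, 1 lower and 24 not called (median log2 fold change 0.02). Over all tested genes 10.3% were called, 4.46% as higher and 5.83% as lower. Nfe2l2, the oxidant-sensing factor NRF2, rose 1.14-fold (adjusted p = 0.000779) and Gsr, glutathione reductase, 1.12-fold (adjusted p = 0.0045). Gpx3, the secreted glutathione peroxidase of kidney, fell to 181 ± 6.67 CPM with Prune2 siRNA, against 199.5 ± 4.75 CPM in controls (SD, n = 3 each; adjusted p = 0.0188), a call lost without Prune2 siRNA replicate 2 (adjusted p = 0.11), without control replicate 2 (adjusted p = 0.115) and on FPKM (adjusted p = 0.104 to 0.146, limma). All 6 genes of NADPH supply were tested, 0 were called, and their log2 fold changes ran from 0.01 to 0.10.

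**Figure D4:**
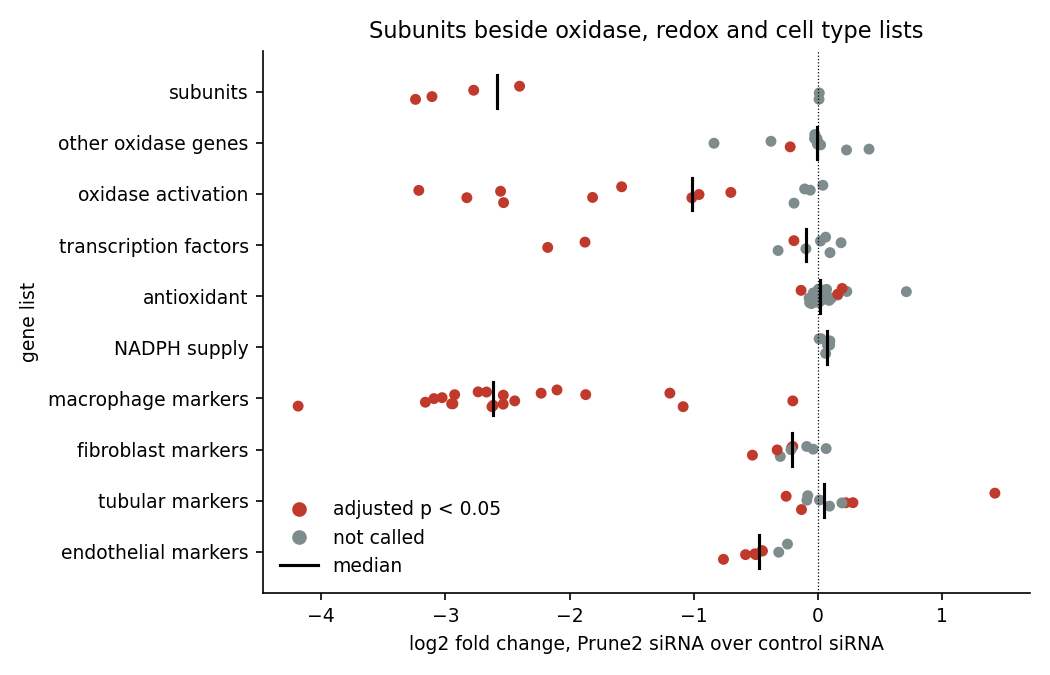
Log2 fold change (Prune2 siRNA over control siRNA) of every tested gene in each list shown, the 6 subunit genes at the top; red points have an adjusted p under 0.05 and black bars are medians. The 4 subunits that fell lie within the spread of the macrophage markers (median -2.62), and Cyba and Nox4 lie with the antioxidant and NADPH supply genes near 0.

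By their medians, the endothelial, fibroblast and tubular lists moved less than the macrophage list (median log2 fold change -2.62). Over all tested genes 5.83% were lower and 4.46% higher. Of 8 endothelial markers, all tested, 6 fell and 0 rose (median log2 fold change -0.48), among which the smallest adjusted p-values were those of Cdh5, the endothelial cadherin, and Emcn, at 1.41-fold and 1.36-fold lower (adjusted p = 8.3e-06 and 2.19e-05). The log2 fold changes of Tie1 and Kdr were larger, at -0.76 and -0.58 (adjusted p = 0.00498 and 0.00038). Of 9 tested fibroblast markers of 12, 4 fell and 0 rose (median -0.21), with Vim, vimentin, 1.44-fold lower (adjusted p = 3.72e-09) and Col1a1 1.16-fold lower (adjusted p = 0.000682, and 0.0776 on unfiltered log2(FPKM + 1) values with limma). Of 10 tested tubular markers of 13, 3 rose and 2 fell (median 0.05). Slc12a3 and Cdh16 had log2 fold changes of 1.42 and 0.28, and Lrp2 and Krt8 of -0.26 and -0.13 (adjusted p = 1.12e-05, 2.47e-05, 0.00347 and 0.0328). The call of Krt8 was lost without Prune2 siRNA replicate 2 (adjusted p = 0.204), without Prune2 siRNA replicate 3 (0.0777), without control replicate 1 (0.0898) and without control replicate 2 (0.152), and on FPKM the adjusted p reached 0.358 for Krt8 and 0.288 for Lrp2 (limma).

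For each of the 6 genes the most similar profiles over the 6 libraries were looked up among 12049 other tested genes with a mean of at least 1 CPM, by Euclidean distance between mean-centred log2 CPM values. The nearest to Cybb were C1qb, a complement chain of macrophages (distance 0.29), and Cd74 (0.306). Nearest to Ncf1 were Pilra, an inhibitory receptor of myeloid cells (0.276), and the cytokine Il1a (0.297). Ncf4 lay nearest to Clec4n, a myeloid lectin receptor (0.658), and Plek, the platelet and leukocyte protein pleckstrin (0.74), and Rac2 to Lyz2, lysozyme (0.24), and Tyrobp, a myeloid signalling adaptor (0.323). Cyba lay nearest to Zdhhc12 (0.0417) and Serac1 (0.0697), and Nox4 to Cnot4 (0.0263) and Map3k7 (0.0292). The distances of Cyba and Nox4 are smaller because genes with little spread all lie close to each other.

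The deposited annotation groups these genes in ways the symbol rule did not use. NADPH oxidase complex, a cellular component term of 12 genes in the table, held Cybb, Cyba, Ncf1, Ncf4 and Nox4. Superoxide anion generation, a process term of 19 genes, held the same 5, and Rac2 is in neither term. Of the 123 tested phagosome pathway genes outside the 6, 30 fell and 9 rose, so 24.4% were lower, and of 89 in leukocyte transendothelial migration 20 fell and 9 rose (22.5% lower). In leishmaniasis 39.6% and in neutrophil extracellular trap formation 19.8% were lower. The remaining pathways that hold 4 or 5 of the 6 lay nearer to the 5.83% lower over all tested genes, with 6.14% lower in prion disease, 8.52% in diabetic cardiomyopathy and 9.7% in lipid and atherosclerosis. Macrophage markers were lower in these libraries, and their part in these pathway counts was not tested.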

How the data were processed

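Gene-level values for 6 RNA-seq libraries came from 1 deposited table. The authors deposited raw read counts per gene and FPKM values per library, per the file headers, with group means of FPKM, a deposited log2 fold change and deposited p-values, raw and adjusted. Per the submitters' processing notes the builds were GRCm38 and mm10. For aligner, counter, strand setting and the authors' test: not given in the sources used here. Libraries held 20075265 to 23234797 counts. Replicates differed by more than sampling noise (chi-square per degree of freedom 2.57 to 3.92 over genes with at least 10 summed counts), so no pair was treated as the same library, which does not show that replicates were separate cultures. The length by which FPKM were divided varied between libraries for some genes.

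Counts were fitted with edgeR 4.0.16 in R 4.3.3 (TMM, filterByExpr, glmQLFit, glmQLFTest, Benjamini-Hochberg over 13248 genes, called at adjusted p under 0.05). The SE is the log2 fold change divided by the square root of F. CPM are counts over TMM-scaled library sizes. Single values were compared by exact two-sided permutation tests. Alternatives were other scalings and filters, DESeq2 1.42.0, limma 3.58.1 with voom or on log2(FPKM + 1) and log2(FPKM + 0.1) (at least 0.1 FPKM in 3 libraries), a replicate block, and leaving out each library. The procedure was tested on simulated data. Symbols came from GENCODE M21 (22219 of 22274 identifiers matched), and all 155 listed symbols used were found. A further 2 genes of the lists as first written are not reported here. The 6 genes and the 12 lists were chosen with earlier results of these data known, and the list genes named are the called ones with the smallest adjusted p, up to 2 per direction, besides every oxidase gene and the 2 nearest profiles of each of the 6. Arhgdib, Lyn, Plcg2, Prkcd, Irf1, Hoxa10, Lgmn, Cx3cr1, Fcgr1, Fcgr3, Csf1r, Slc12a1, Umod, Tie1, Kdr, Lum, Fap, Cdh1, Epcam and Gtf2ird2 are outside that rule and were named after their values were seen, as were markers at 0. The same holds for Dcn, Thy1, S100a4, Col1a2, Col3a1, Pdgfra, Pdgfrb, Postn, Tek, Ccn2, Skil and Smad7.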

Additional observations from a re-analysis of the deposited data

How the results depend on the processing

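Cybb, Ncf1, Ncf4 and Rac2 kept their direction and their call in all 17 alternatives, with adjusted p-values of at most 0.000591, 0.000329, 0.00714 and 0.00899. Their log2 fold changes ran from -3.36 to -1.32, -3.18 to -1.69, -2.76 to -0.74 and -3.09 to -1.59, the smallest on log2(FPKM + 1), where the added 1 shrinks changes of scarce genes. Over all genes 1364 were called in the count fit (591 higher, 773 lower), 997 to 1249 without a library, 1114 with DESeq2, 759 on log2(FPKM + 1) (326 higher, 433 lower), 761 on log2(FPKM + 0.1) (328 higher, 433 lower) and 593 on unfiltered log2(FPKM + 1) (221 higher, 372 lower), a setting chosen after seeing the data. The cause was not tested.

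Signs turned for genes near 0, none of them called. Cyba gave -0.000666 with upper-quartile scaling and -0.0496 to 0.104 without a library, and Nox4 -0.0137 to 0.0398 without a library. Rap1b gave -0.00711 with upper-quartile scaling. With library totals only, Cybc1 gave 0.00483, Map3k7 0.00483 and Rac1 0.000842. On log2(FPKM + 1), filtered or not, and log2(FPKM + 0.1), Cybc1 gave 0.0616 and 0.0645, Map3k7 0.00253 and 0.00264, Poldip2 0.0030 and 0.00306, Rac1 0.00701 and 0.00706, and Sh3pxd2a 0.0102 and 0.0107. Without a library the ranges were -0.00813 to 0.0462 for Cnot4, -0.0593 to 0.037 for Cybc1, -0.0307 to 0.021 for Map3k7, -0.0331 to 0.0053 for Rac1, -0.0276 to 0.053 for Rap1a, -0.0171 to 0.0176 for Rap1b, -0.0286 to 0.0985 for Serac1, -0.063 to 0.00861 for Sh3pxd2a and -0.0399 to 0.127 for Zdhhc12. In deposited FPKM the differences of log2 ratios were -0.00151 for Ncf1 over Cybb, -0.511 for Rac2 over Cybb and 0.0447 for Nox4 over Cyba. The cause of these turns was not tested.

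Libraries of the same replicate number showed no consistent likeness. Their deviations from the group means correlated at 0.031, -0.0366 and -0.0171, and not every library matched its own number best. With 3 libraries per group such correlations cannot exclude a shared culture or batch. With the replicate block 1490 genes were called (664 higher, 826 lower), and the 4 calls among the 6 genes were unchanged. Counts of 2 to 29 per Prune2 siRNA library limit the precision for Cybb, Ncf1, Ncf4 and Rac2.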
